A study of Homo sapiens with 4 samples.

Results

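The SOX family of transcription factors was followed while BC1 cells, an induced pluripotent line of human origin, were turned into blood progenitors. Its 10 members here, SOX2, SOX3, SOX4, SOX7, SOX9, SOX11, SOX15, SOX17, SOX18 and SOX21, were chosen by gene symbol from a deposited table of 58274 gene identifiers, and each had 1 row. RNA was sequenced from undifferentiated BC1 cells, from APLNR+ mesoderm cells at day 2, at day 5 from CD31+CD34+ progenitors of hemogenic endothelium (HEPs) and at day 8 from CD43+ hematopoietic progenitors (HPCs). Differentiation began with activin A and BMP4 and went on with VEGF and bFGF, and the 3 later populations are named by the surface markers on which they were collected. All came from this 1 cell line. Each population had 1 library, so the differences below have no replicate check and no test between populations was possible.

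SOX proteins bind DNA through a shared HMG box that bends the helix, and they usually act with a partner factor that sets which genes they reach. They are sorted into groups by the sequence of that box. SOX2 and SOX3 (group SOXB1) keep stem and neural progenitor cells undifferentiated, SOX21 (SOXB2) counteracts them, and SOX4 and SOX11 (SOXC) are broad activators of progenitor cells. SOX7, SOX17 and SOX18 (SOXF) act in endothelium, and SOX17 also in definitive endoderm. SOX9 (SOXE) drives cartilage, and SOX15 (SOXG) is a relative of the SOXB1 genes.

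Levels are given in FPKM, that is, fragments scaled to a transcript length of 1 kilobase and to 1000000 mapped fragments, a scale on which genes of different length can be compared. The libraries held between 19700000 and 23600000 mapped fragments, as read from the steps between low values. The 95% intervals are exact Poisson intervals for a level and exact Clopper-Pearson intervals for a fold. They rest on approximate fragment counts and cover counting error only. A change is the difference in log2(FPKM + 1), which understates the fold of low genes, and a gene is said to rise or fall where it changed by at least 2. Of the 10 SOX genes, 9 reached 1 FPKM in at least 1 library, which was the filter for counts of genes. SOX21 did not. A gene that passed the filter through 1 high library had to differ between libraries, so these counts are descriptions.

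Each library had high levels of the marker genes of its label, beside markers of other stages. The lists include the genes of the surface markers used for collection: APLNR, PECAM1 (CD31), CD34 and SPN (CD43). High levels of these follow from the collection, and APLNR alone was at 1073 FPKM in APLNR+. The summed level of 3 pluripotency markers was 2292, 834, 2.46 and 0.245 FPKM in BC1, APLNR+, CD31+CD34+ and CD43+. The 5 mesoderm markers summed to 1861 FPKM in APLNR+ and the 5 endothelial markers to 1215 FPKM in CD31+CD34+. The 4 hematopoietic markers summed to 1401 FPKM in CD43+. In CD31+CD34+ the hematopoietic markers summed to 146 FPKM and the mesoderm markers to 211 FPKM, nearly all of it APLNR at 209 FPKM. The endothelial markers summed to 287 FPKM in CD43+, where PECAM1 was at 126 FPKM and CDH5 at 9.38 FPKM. The 3 cardiac markers summed to 23.5, 62.7, 70.8 and 1.23 FPKM in the 4 populations. Most of this was a different gene each time, TNNT2 in BC1 (22.5 FPKM), MYL7 in APLNR+ (51.7 FPKM) and NKX2-5 in CD31+CD34+ (69.2 FPKM). The 4 smooth muscle markers summed to 143.7, 149, 136 and 36.9 FPKM. TAGLN was the largest part in BC1, APLNR+ and CD31+CD34+, at 129, 117 and 74.7 FPKM. In bulk RNA, fewer cells of a type and less RNA per cell cannot be told apart.

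The promoters of SOX2 and SOX3, which left the transcriptome together, and of SOX4, which stayed, are shown for comparison. They are RefSeq sequences of GRCh38.p14, each from 250 bases before to 50 bases after the RefSeq start and written on the strand of the gene. RefSeq promoters were found for 4 of the 10 genes. Capitals mark matches on either strand to the GC box (GGGCGG), the CCAAT box, a SOX-type site (ACAAAG) and the start of an octamer site (ATGCAA). No matches overlapped.
SOX2, chr3:181711675-181711974, plus strand: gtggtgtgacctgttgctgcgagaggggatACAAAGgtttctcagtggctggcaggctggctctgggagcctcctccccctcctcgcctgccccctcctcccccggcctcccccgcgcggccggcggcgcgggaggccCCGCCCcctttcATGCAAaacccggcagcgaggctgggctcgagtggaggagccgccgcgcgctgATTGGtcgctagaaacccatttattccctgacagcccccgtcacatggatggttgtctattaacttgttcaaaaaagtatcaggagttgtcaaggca
SOX3, chrX:140505020-140505319, minus strand: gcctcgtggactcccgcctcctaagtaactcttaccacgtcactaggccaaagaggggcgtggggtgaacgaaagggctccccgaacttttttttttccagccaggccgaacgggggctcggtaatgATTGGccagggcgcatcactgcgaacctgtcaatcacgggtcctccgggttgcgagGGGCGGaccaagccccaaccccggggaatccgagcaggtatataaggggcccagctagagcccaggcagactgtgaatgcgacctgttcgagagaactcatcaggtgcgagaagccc
SOX4, chr6:21593501-21593800, plus strand: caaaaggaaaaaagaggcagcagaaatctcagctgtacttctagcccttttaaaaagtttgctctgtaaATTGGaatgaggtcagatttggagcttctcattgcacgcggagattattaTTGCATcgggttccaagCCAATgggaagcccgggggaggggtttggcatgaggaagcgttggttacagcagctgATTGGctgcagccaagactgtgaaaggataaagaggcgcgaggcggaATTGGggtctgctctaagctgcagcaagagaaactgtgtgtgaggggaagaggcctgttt

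The SOX2 and SOX3 windows each held 1 GC box, 112 and 67 bases before the start, and 1 CCAAT box, 47 and 123 bases before it. The SOX4 window held 4 CCAAT boxes and no GC box. Among 35116 promoters of the same length, 45.0% had a GC box and 34.6% a CCAAT box. The SOX-type site stood only in the SOX2 window of these 3, as in 16.1% of all promoters, and the octamer start stood in the SOX2 and SOX4 windows, as in 10.1% of all. Neither ACAATG, another SOX-type site, nor the exact TATA box string TATAAA was found in the 3 windows. ACAATG was in 10.8% and TATAAA in 11.5% of all promoters. Only exact matches were counted, so near matches, such as tataag in the SOX3 window, were left out. CG dinucleotides numbered 20 in SOX2, 20 in SOX3 and 8 in SOX4, against a median of 14 over all promoters. The window of SOX21, which was also highest in BC1 and is not printed, held no GC box, 1 CCAAT box and 15 CG dinucleotides. Its 1 match to TATAAA was on the opposite strand, 146 bases before the start. The RefSeq start of SOX4 lies 983 bases inside the GENCODE gene.

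The SOXB genes had their highest levels in the undifferentiated BC1 cells, where SOX4 of the SOXC group was also high, at 76.2 FPKM. SOX2 (ENSG00000181449.3, chromosome 3, 181711924 to 181714436, plus strand) has a single exon and was at 172 FPKM in BC1 (95% interval 168 to 176), above 96.7% of protein-coding genes. It was at 0.766 FPKM in APLNR+ (0.539 to 1.06, 37 fragments) and listed at 0 in CD31+CD34+ and CD43+, where 3 fragments would be 0.0569 and 0.0623 FPKM. SOX2 thus was 224-fold lower in APLNR+ than in BC1 (163 to 319), and at least 13.5-fold lower again in CD31+CD34+. POU5F1, the partner of SOX2 on many enhancers, was at 1997 FPKM in BC1 and still at 573 FPKM in APLNR+.

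SOX3 (ENSG00000134595.8, X chromosome, 140502985 to 140505116, minus strand) has a single exon too. It was at 40.02 FPKM in BC1 (38.01 to 42.1) and at 0.0748 FPKM in APLNR+, which is 3 fragments, and was listed at 0 afterwards. Its ratio of BC1 to APLNR+ was 535 (183 to 2600), an interval that overlaps that of SOX2. SOX21 (ENSG00000125285.5, chromosome 13, 94709622 to 94712399, minus strand) was at 0.968 FPKM in BC1 (0.713 to 1.28, 48 fragments). It was at 2 fragments in APLNR+ and in CD31+CD34+ and listed at 0 in CD43+, and was 26.1-fold lower in APLNR+ than in BC1 (6.85 to 222). All 3 SOXB genes therefore had their highest level in BC1. SOX2 made up 81.1% of the SOXB1 level there.

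SOX2-OT, a non-coding gene whose span holds SOX2 on the same strand without sharing exonic bases with it, did not follow SOX2. It was at 1.53 FPKM in BC1, listed at 0 in APLNR+, at 1.14 FPKM in CD31+CD34+ and at 0.0141 FPKM in CD43+. These are 18, 0, 16 and 0 fragments. It was therefore present in CD31+CD34+, where SOX2 was listed at 0. SOX21-AS1, beside SOX21, was at 0.436 FPKM in BC1 and at most 0.0617 FPKM later. SOX9-AS1 was at most 0.0366 FPKM and SOX5-AS1 was listed at 0 in all 4 libraries. Of these 4 RNAs 1, SOX2-OT, passed the filter, and none changed by 2.

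**Figure D1:**
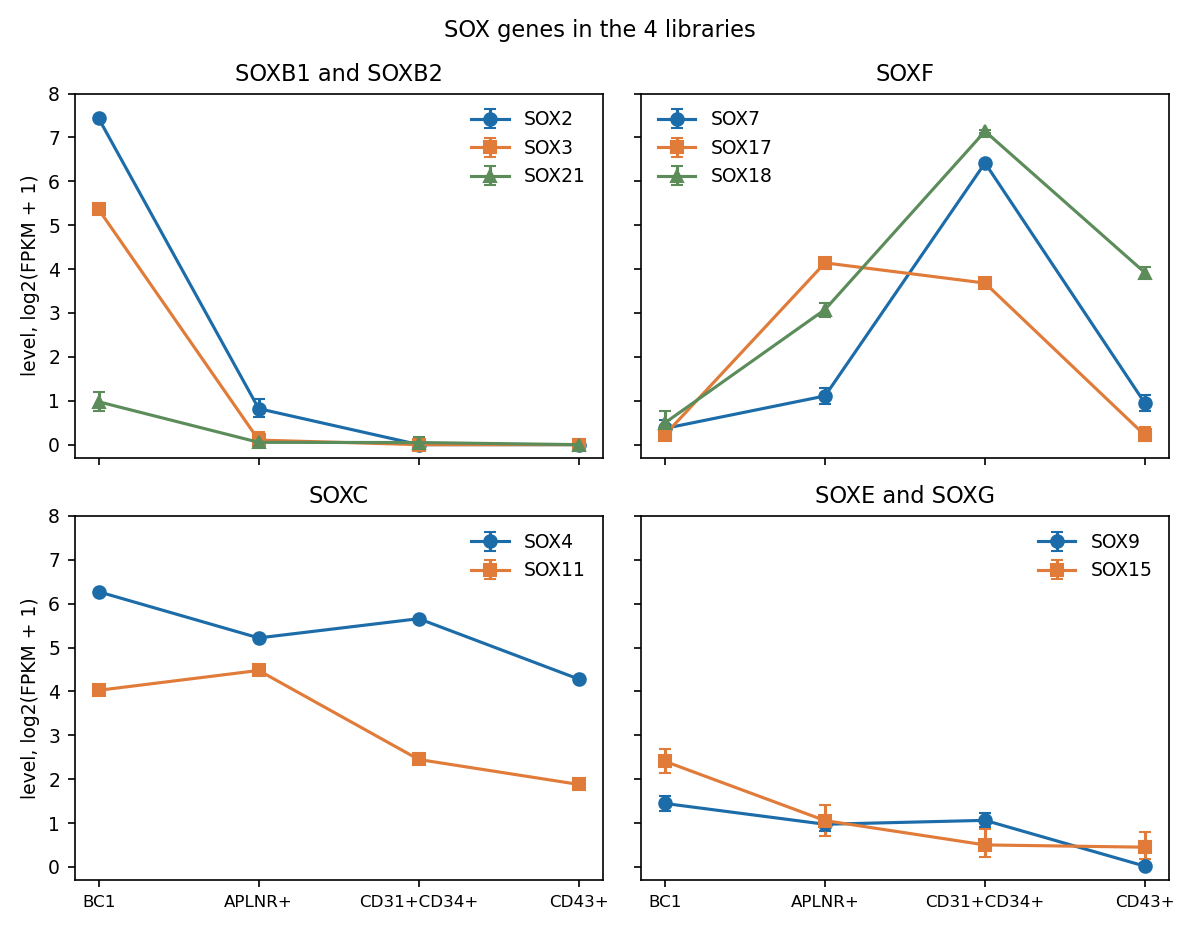
Levels of the 10 SOX genes as log2(FPKM + 1) in the 4 libraries, in the order of differentiation and in panels by SOX group. Points are single libraries and bars are 95% Poisson intervals from counting; the SOXB genes are highest in BC1, SOX7 and SOX18 in CD31+CD34+, and SOX17 and SOX11 in APLNR+.

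Genes that SOX2 shares with POU5F1 as partners or targets were lost over a longer time. Of the 12 genes of this list 10 passed the filter. From BC1 to APLNR+, 4 of them fell and none rose, where 2.29% of all genes fell and 2.68% rose, with a median change of -1.82 against 0.00 over all genes. UTF1, a chromatin factor of pluripotent cells, went from 23.9 to 0.625 FPKM, NANOG from 23.6 to 0.957 FPKM and PRDM14 from 28.8 to 2.62 FPKM. From APLNR+ to CD31+CD34+, 3 fell, where 3.15% of all genes did, with a median of -1.30 against 0.01. Among them were POU5F1, from 573 to 1.87 FPKM, and the Nodal coreceptor gene TDGF1, from 260 to 0.559 FPKM. None changed by 2 from CD31+CD34+ to CD43+, with a median of -0.21 against -0.08. SOX2 thus left with UTF1, NANOG and PRDM14 and ahead of POU5F1 and TDGF1 in these libraries.

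Of the SOXF genes, SOX17 was highest in APLNR+, and SOX18 and SOX7 were highest in CD31+CD34+. SOX17 (ENSG00000164736.5, chromosome 8, 54457935 to 54460888, plus strand, 2 exons) was at 0.171 FPKM in BC1 and 16.6 FPKM in APLNR+ (15.5 to 17.9), a 97.5-fold difference (47.1 to 243). It was at 11.8 FPKM in CD31+CD34+ (10.9 to 12.8), 1.41-fold lower than in APLNR+ (1.26 to 1.57). In CD43+ it was at 0.157 FPKM, 75.1-fold lower than in CD31+CD34+ (36.2 to 187). Its levels in BC1 and CD43+, 7 fragments each, differed by 1.08-fold (0.324 to 3.62). SOX17 was therefore a gene of the middle stages alone among these 4 libraries.

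SOX18 (ENSG00000203883.6, chromosome 20, 64047582 to 64049641, minus strand, 2 exons), a regulator of blood and lymphatic vessels, went from 0.411 FPKM in BC1 to 7.45 FPKM in APLNR+, 18.1-fold higher (10.4 to 34.5). It reached 140 FPKM in CD31+CD34+ (136 to 144), a further 18.8-fold (16.6 to 21.4), and was at 14.1 FPKM in CD43+, 9.93-fold lower (9.04 to 10.9). SOX18 in CD43+ was still 34.3-fold above its level in BC1 (19.9 to 64.9). SOX7 (ENSG00000171056.7, chromosome 8, 10723768 to 10730512, minus strand, 2 exons) was at 0.293, 1.16, 84.5 and 0.917 FPKM in BC1, APLNR+, CD31+CD34+ and CD43+. SOX7 was 3.96-fold higher in APLNR+ than in BC1 (2.30 to 7.13). It then rose 73.0-fold (58.3 to 93.8) and afterwards fell 92.1-fold (71.2 to 122). SOX7 was thus high in 1 of the 4 libraries and had 17 to 73 fragments in the others. From APLNR+ to CD31+CD34+, where SOX7 and SOX18 rose, the cardiac factor gene NKX2-5 also rose, from 9.77 to 69.2 FPKM. The other cardiac markers went down, MYL7 from 51.7 to 1.39 FPKM and TNNT2 from 1.20 to 0.178 FPKM. The smooth muscle actin gene ACTA2 rose from 2.19 to 48.3 FPKM, while MYH11 was at 0.0221 FPKM. The smooth muscle markers TAGLN and CNN1 went down, from 117 to 74.7 FPKM and from 29.7 to 13.4 FPKM. The part of such cells in the SOXF levels was not tested.

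The SOX7 values depend on how fragments were divided. AC105001.2 (ENSG00000258724.1, chromosome 8, 10725399 to 10839847, minus strand) is a readthrough gene annotated from the start of PINX1 to the last exon of SOX7. It shares 1268 of its 1753 exonic bases with SOX7, which are 39.4% of the exonic bases of SOX7. The level of AC105001.2 was 1.83, 3.80, 216 and 3.02 FPKM in the 4 populations. PINX1, whose first exons the readthrough gene also holds, went the other way, at 29.9, 23.4, 11.9 and 7.28 FPKM. AC105001.2 therefore had the course of SOX7 and not that of PINX1.

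With the fragments of both genes put on the SOX7 transcript, SOX7 would be at 1.22, 3.07, 193 and 2.43 FPKM. Its level in CD31+CD34+ (189 to 196) would then be above that of SOX18, whereas on its own row it is below. The rise would be 62.7-fold (54.4 to 72.6) and the fall 79.3-fold (67.6 to 93.5). The rise and fall of SOX7 had to remain under this division, because AC105001.2 had the same course. The order of SOX7 and SOX18 in CD31+CD34+ was not settled. This division was tried after the values were seen.

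**Figure D2:**
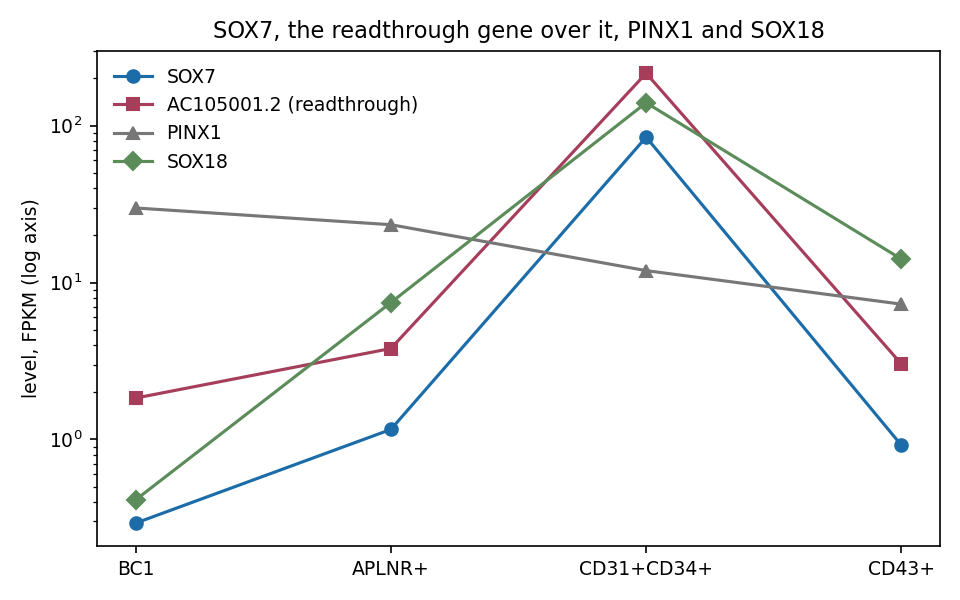
Levels in FPKM on a log axis of SOX7, the readthrough gene AC105001.2, PINX1 and SOX18 in the 4 libraries, 1 point a library. SOX7 and AC105001.2 peak in CD31+CD34+ at 84.5 and 216 FPKM, while PINX1 goes from 29.9 to 7.28 FPKM across the 4 populations.

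The make-up of the SOXF group changed with each stage. In APLNR+, SOX17 was 65.9% of the summed SOXF level of 25.2 FPKM and SOX18 was 29.5%. In CD31+CD34+ the sum was 236 FPKM, of which SOX18 made up 59.2%, SOX7 35.8% and SOX17 5.01%. In CD43+ the sum was 15.2 FPKM, and SOX18 made up 92.9% of it. With the fragments of AC105001.2 added to SOX7, the sum in CD31+CD34+ would be 345 FPKM, with 55.9% from SOX7, 40.6% from SOX18 and 3.43% from SOX17. In CD43+ SOX18 would make up 84.5% of 16.7 FPKM.

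The list of SOXF partners and targets in endothelium had 14 of 15 genes past the filter. None changed by 2 from BC1 to APLNR+, where SOX17 and SOX18 had already risen, and the median change was 0.27 against 0.00 over all genes. From APLNR+ to CD31+CD34+, 9 rose and none fell, where 4.08% of all genes rose and 3.15% fell, with a median of 3.06 against 0.01. CDH5, which encodes the endothelial cadherin, rose from 0.663 to 224 FPKM, RASIP1 from 3.15 to 156 FPKM and the angiopoietin receptor gene TEK from 1.85 to 82.5 FPKM. From CD31+CD34+ to CD43+, 9 fell and 1 rose, where 4.32% of all genes fell and 2.28% rose, with a median of -2.32 against -0.08. CDH5 fell to 9.38 FPKM, the VEGF receptor gene KDR from 569 to 38.01 FPKM and NR2F2 from 23.4 to 1.34 FPKM. The gene that rose was MEF2C, a partner of SOX18, which went from 29.2 to 159 FPKM as SOX18 fell. VCAM1 did not reach 1 FPKM in any of the 4 libraries, and CLDN5, a tight junction gene downstream of SOX18, had at most 2.94 FPKM.

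SOX17 in APLNR+ stood beside some genes that it accompanies in endoderm and not others. Of 16 genes in that list 13 passed the filter, and 6 rose and none fell from BC1 to APLNR+, where 2.68% of all genes rose and 2.29% fell. The median change was 1.11 against 0.00 over all genes. CER1, a secreted Nodal antagonist, rose from 2.50 to 2991 FPKM. GATA6 rose from 0.0434 to 363 FPKM. EOMES rose from 0.244 to 205 FPKM. GATA6 and EOMES act in early mesoderm as well. FOXA2 was at 0.588 FPKM in APLNR+ against 0.522 FPKM in BC1, and CXCR4 at 0.820 FPKM. Of the endoderm markers used to check the labels, AFP was at 14.7 FPKM in APLNR+ against 11.5 FPKM in BC1, TTR at 8.46 against 3.39 FPKM and HNF4A at 1.63 against 0.552 FPKM. Their part in the SOX17 level was not tested.

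From APLNR+ to CD31+CD34+, 5 genes of the endoderm list fell and 1 rose, where 3.15% of all genes fell and 4.08% rose, with a median of -1.67 against 0.01, while the SOX17 level differed by 1.41-fold. CER1 fell to 0.0905 FPKM, EOMES to 0.280 FPKM and GSC from 111 FPKM to a value listed at 0. HHEX, a factor of liver bud and blood vessel precursors, rose from 7.13 to 87.9 FPKM. From CD31+CD34+ to CD43+, 2 fell and none rose, where 4.32% of all genes fell and 2.28% rose, with a median of -0.55 against -0.08. These were GATA4, from 41.6 to 0.935 FPKM, and GATA6, from 57.8 to 12.3 FPKM.

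The SOXC genes were present throughout. SOX4 (ENSG00000124766.6, chromosome 6, 21592768 to 21598619, plus strand, 1 exon) was at 76.2 FPKM in BC1 and 36.2 FPKM in APLNR+. Its level was 49.5 FPKM in the CD31+CD34+ library, then 18.4 FPKM in the CD43+ library, and no 95% interval overlapped another. Its difference from BC1 to CD43+ was 4.13-fold (3.94 to 4.33), in steps of 2.10-fold lower, 1.36-fold higher and 2.68-fold lower. None of these steps reached a change of 2. SOX4 had the highest level of the 10 genes in APLNR+ and in CD43+. SOX11 (ENSG00000176887.6, chromosome 2, 5692667 to 5701385, plus strand, 1 exon) was at 15.3, 21.3, 4.46 and 2.68 FPKM. It was 1.39-fold higher in APLNR+ than in BC1 (1.32 to 1.46) and fell 4.77-fold (4.43 to 5.14) from APLNR+ to CD31+CD34+, a change of -2.03 that just passed the limit. Of the summed level of SOX4 and SOX11, SOX4 was 83.3% in BC1, 63.002% in APLNR+ and 91.7% in CD31+CD34+. These shares leave out SOX12, a SOXC gene outside the 10, which was at 53.7, 73.05, 58.8 and 61.7 FPKM in the 4 populations.

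Neural genes, with which the SOXB and SOXC genes are often found, were mostly below the filter. NES, OTX2, TUBB3 and MAP2 passed it, 4 of the 11 genes of the neural list. The intermediate filament gene NES was at 50.9, 77.8, 61.3 and 18.04 FPKM in the 4 populations. The neural markers PAX6, SOX1 and DCX did not reach 1 FPKM in any of the 4 libraries. OTX2, which is also a gene of pluripotent and anterior cells, was the only gene of the list that fell from APLNR+ to CD31+CD34+, from 82.8 to 1.004 FPKM, where 3.15% of all genes fell. TUBB3 fell from 36.04 to 6.28 FPKM from CD31+CD34+ to CD43+, where 4.32% of all genes fell. The median changes of the 4 genes were -0.18, -0.95 and -1.36 at the 3 transitions, against 0.00, 0.01 and -0.08 over all genes, and none changed by 2 at the first.

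SOX9 (ENSG00000125398.5, chromosome 17, 72121020 to 72126420, plus strand, 3 exons) was low, at 1.73 FPKM in BC1 (1.44 to 2.06), 0.964 in APLNR+ (0.760 to 1.21), 1.09 in CD31+CD34+ (0.882 to 1.34) and 0.0127 in CD43+, which is 1 fragment. APLNR+ and CD31+CD34+ differed by 1.13-fold (0.827 to 1.55). The ratio of CD31+CD34+ to CD43+ was 85.9 (15.05 to 3429), which on the log2 scale is a change of only -1.04. Of the cartilage genes that SOX9 drives in chondrocytes, 8 passed the filter. From BC1 to APLNR+, 2 of the 8 rose and 1 fell, against 2.68% and 2.29% of all genes. At the transition to CD31+CD34+ there was 1 in each direction, against 4.08% of all genes that rose and 3.15% that fell. At the transition to CD43+ there was again 1 in each, against 2.28% and 4.32%. Their median changes were 0.48, -0.52 and -0.69, against 0.00, 0.01 and -0.08 over all genes. The median was below that of all genes at both later steps, where SOX9 changed by 0.09 and then by -1.04. The part of SOX9 in these changes was not tested. COL2A1, the cartilage collagen, rose from 1.76 FPKM in CD31+CD34+ to 198 FPKM in CD43+, the library with 1 SOX9 fragment. HAPLN1, a link protein, was at 0.606, 75.4, 437 and 6.76 FPKM. COL9A2 rose from 2.45 to 54.5 FPKM in APLNR+ and fell to 7.37 FPKM in CD31+CD34+, and COL9A1 went down at that first step, from 7.18 to 1.04 FPKM.

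SOX15 (ENSG00000129194.7, chromosome 17, 7588178 to 7590170, minus strand, 3 exons) was at 4.30 FPKM in BC1 (3.38 to 5.46), 1.08 in APLNR+ (0.643 to 1.67), 0.417 in CD31+CD34+ and 0.367 in CD43+. It was 3.98-fold lower in APLNR+ than in BC1 (2.42 to 7.12), and its last 2 levels, 8 and 6 fragments, could not be told apart (1.13-fold, 0.369 to 4.24). MPDU1 on the opposite strand shares 15 exonic bases with SOX15 and was between 42.9 and 68.7 FPKM. Like the SOXB genes, SOX15 was highest in BC1.

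By the count, the SOX genes changed at every transition. From BC1 to APLNR+, SOX17 and SOX18 rose, 2 of the 9 genes, where 2.68% of the 17137 genes tested rose. SOX2 and SOX3 fell, against 2.29% of all genes. From APLNR+ to CD31+CD34+, SOX7 and SOX18 rose, against 4.08%, and SOX11 fell, against 3.15%. From CD31+CD34+ to CD43+ no SOX gene rose, against 2.28%, and the 3 SOXF genes fell, against 4.32%. The median change of the 9 genes was -0.47, -0.10 and -1.04 at the 3 transitions. The highest level was in BC1 for 5 of the 9 genes, in APLNR+ for 2, in CD31+CD34+ for 2 and in CD43+ for 0. Among all genes tested these shares were 27.7%, 22.7%, 25.5% and 24%. The 9 genes were chosen with earlier results known, so the counts describe them and are no sample of transcription factors.

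**Figure D3:**
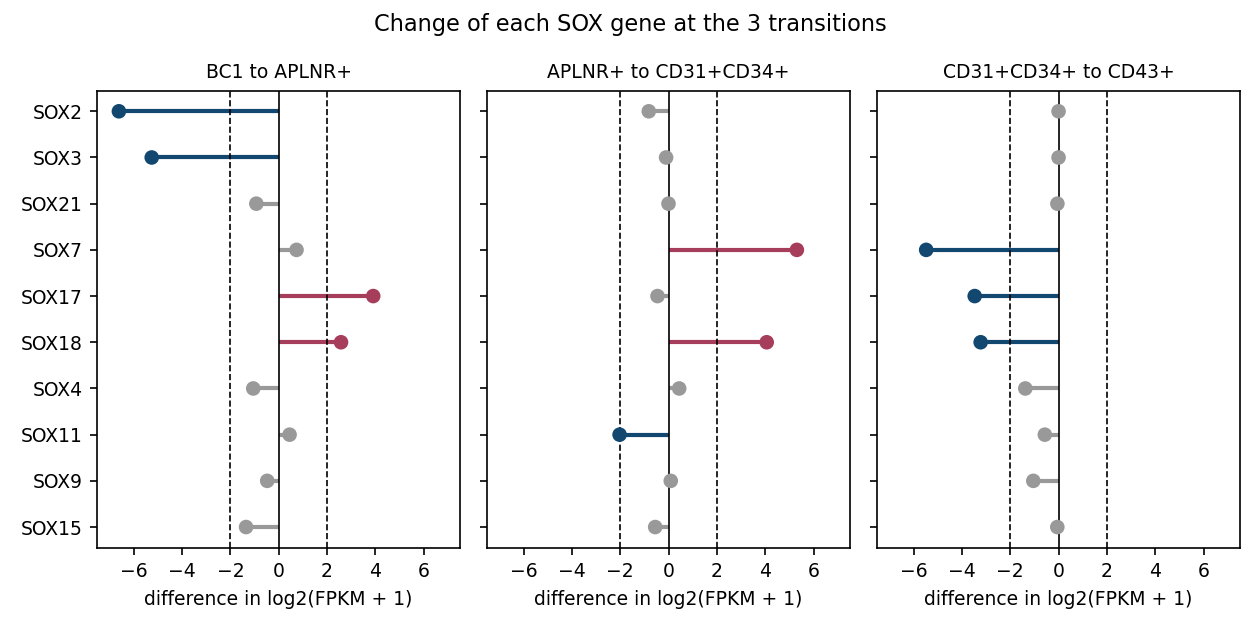
Change of each SOX gene at the 3 transitions as the difference in log2(FPKM + 1) between single libraries, with dashed lines at changes of 2 in either direction. Genes past the lines are coloured: SOX2 and SOX3 fall and SOX17 and SOX18 rise at the first transition, SOX7 and SOX18 rise and SOX11 falls at the second, and the 3 SOXF genes fall at the last.

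The summed level of the 10 SOX genes was 311 and 292 FPKM in BC1 and CD31+CD34+, and 85.7 and 36.7 FPKM in APLNR+ and CD43+. SOXB1 made up 68.1% of it in BC1 and 0.981% in APLNR+. SOXF went from 0.281% in BC1 through 29.5% in APLNR+ to 81.0% in CD31+CD34+, and was 41.4% in CD43+. SOXC, that is SOX4 and SOX11 without SOX12, made up 29.4%, 67.1%, 18.5% and 57.6%. With the fragments of AC105001.2 added to SOX7, the sums would be 312 FPKM in BC1 and 400.0 FPKM in CD31+CD34+, and SOXF would make up 86.1% of the latter. SOXB1 therefore led in BC1 under either division. SOXF led in CD31+CD34+, where the added fragments could only raise its share.

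**Figure D4:**
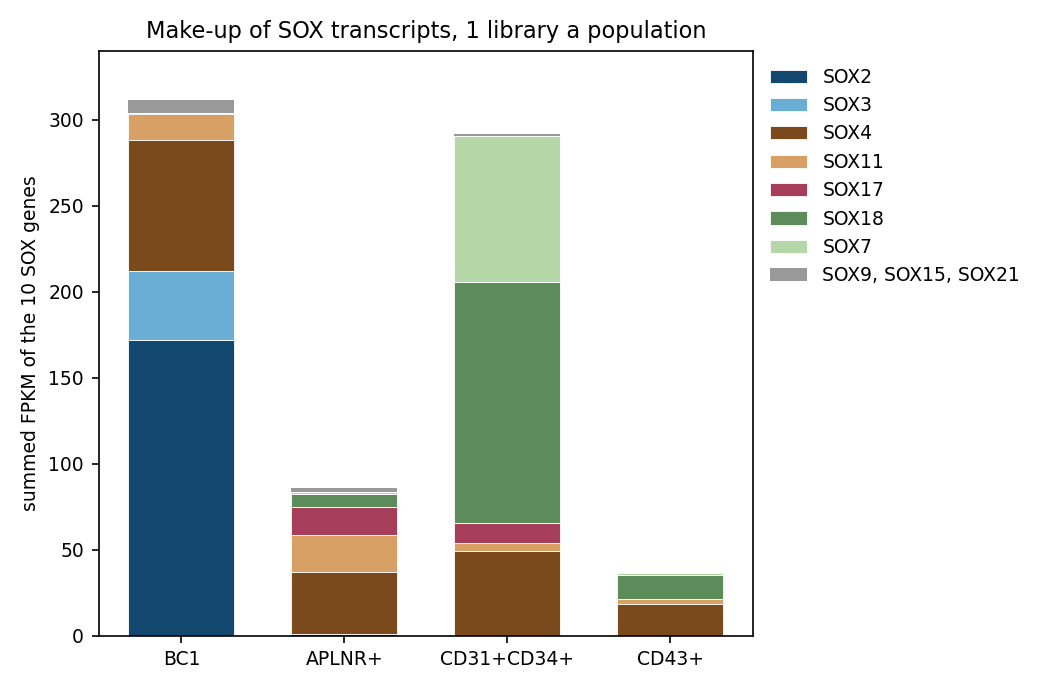
Summed FPKM of the 10 SOX genes in each library as stacked bars, coloured by gene, with SOX9, SOX15 and SOX21 in grey. SOX2, SOX3 and SOX4 fill most of the bar of BC1, SOX18, SOX7 and SOX4 that of CD31+CD34+, and the bar of CD43+ is the lowest at 36.7 FPKM.

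None of the other SOX genes changed by 2 at any of the 3 transitions. Of 9 such genes 5 passed the filter, with median changes of -0.24, 1.08 and -1.40 against 0.00, 0.01 and -0.08 over all genes. SOX12, the remaining SOXC gene, stayed between 53.7 and 73.05 FPKM, and was the SOX gene with the highest level in CD43+, at 61.7 FPKM. SOX13 was at 54.2, 19.9, 17.4 and 6.01 FPKM, 9.03-fold lower in CD43+ than in BC1 (7.87 to 10.4). SOX8 and SOX10, which with SOX9 form the SOXE group, were highest in CD31+CD34+, at 10.3 and 4.22 FPKM, as was SOX5 at 2.45 FPKM. In CD43+, SOX5 was 11.4-fold lower than there (5.81 to 23.6) and SOX10 7.37-fold lower (4.65 to 12.2). At such low levels the log2 change understates the fold. SOX1, SOX6, SOX14 and SOX30 did not reach 1 FPKM. The SOXE gene with the highest level in CD31+CD34+ was therefore SOX8 and not SOX9.

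Genes with the most similar course were found for the SOX genes that reached 10 FPKM, by the distance between the 4 log2(FPKM + 1) values centred on their mean, among 13910 protein-coding genes. With 4 values for each gene, many genes lie close. For SOX3 they were FOXD3, at a distance of 0.181, and VSNL1, at 0.474. For SOX2 they were again FOXD3 and VSNL1, at 1.55 and 1.64, and SOX3 came next at 1.69. SOX7 was nearest to AC105001.2 at 0.204, which shares its exon, and then to ACVRL1, an endothelial receptor of the TGF-beta family, at 0.704. SOX18 was nearest to VAMP5 at 0.825 and LGALS1 at 1.20. SOX17 was nearest to PCDH10 at 0.104 and LIFR at 0.510. SOX4 was nearest to MMP16 and GPR19, at 0.130 and 0.149, and SOX11 to CDHR3 and MAPK15, at 0.152 and 0.174. Within SOXF, SOX7 and SOX18 lay 2.21 apart, and SOX17 lay 4.14 from SOX7 and 4.09 from SOX18.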

How the data were processed

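RNA of 1 library for each of the 4 populations was sequenced after TruSeq preparation. The authors deposited gene-level FPKM values. The submitters' processing notes name BWA, Bowtie and RSEM and the build hg19, without roles, whereas the identifiers and loci in the table are those of GENCODE on GRCh38. All 10 SOX loci equalled those of GENCODE release 29, on which positions are given, counted from 1. Some values are far below that of 1 fragment, so fragments of overlapping genes were divided by an estimate, and use of strand is not given in the sources used here.

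Rows of 1 gene identifier were summed (90 identifiers). Depth and a length correction of 260 to 285 bases were fitted to low values of genes with 1 transcript of at least 1000 bases. Of the values used, 84.4% to 86.3% fell within 0.1 of a whole number of fragments. The fit was tested on simulated data. Fragments of a gene were computed from the median length of its coding transcripts. A fold against 0 was computed from a floor of 3 fragments. Lists of genes were taken from general knowledge, 7 in all; of each, the genes with the largest changes of at least 2, up to 3 in each direction at each transition, are named. The 2 nearest genes are named for SOX genes of at least 10 FPKM. Other genes of the lists, such as FOXA2, CXCR4, VCAM1, CLDN5, NES and AFP, other marker genes and the genes that overlap SOX loci were named after their values were seen. Some genes of the lists are not reported here. The members and lists were chosen with earlier results of these data known. No count model was used, since FPKM values are not counts. Alternatives covered the pseudocount (0.1), the limit (1), the filter (none, 5 FPKM), 3 scalings, the rows and the transcript length. Python 3.11.15, numpy 2.4.6, pandas 2.3.3 and scipy 1.17.1 were used.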

Additional observations from a re-analysis of the deposited data

How the results depend on the processing

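No paired analysis was possible because each population had 1 library, and for the same reason no replicate could be left out. The count of SOX genes that fell from APLNR+ to CD31+CD34+ was 1 and became 2 with a pseudocount of 0.1, with SOX2 added to SOX11, while the number of all genes that fell went from 539 to 1345. With a limit of 1 in place of 2, the count that fell from BC1 to APLNR+ went from 2 to 4 with SOX4 and SOX15, beside 1597 of all genes in place of 393. With the same limit the count that fell from CD31+CD34+ to CD43+ went from 3 to 5 with SOX4 and SOX9, beside 2321 in place of 741. The other counts of SOX genes moved by at most 1.5 times under these settings, the filters, the 3 scalings and the highest row of an identifier. At the other transitions and directions a pseudocount of 0.1 gave 807 to 1695 genes in all and a limit of 1 gave 1307 to 2229, each over 1.5 times the main count. A scaling to a total of 1000000 let SOX21 pass the filter, and a filter of 5 FPKM left 7 SOX genes. None of the 30 changes of the 10 genes changed sign under the 3 scalings, nor did those of SOX7 with the fragments of AC105001.2. The filters, the rows and the pseudocount could not turn a sign. Neither could these fragments, since AC105001.2 changed in the direction of SOX7 at each transition. With these fragments SOX7 and not SOX18 led in CD31+CD34+, at 193 against 140 FPKM. Counting limits SOX2, SOX3, SOX9, SOX15, SOX17 and SOX21 most, whose lowest libraries hold from 0 to 7 fragments.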
